A study of Mus musculus with 6 samples.

Results

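The mitochondrial ribosomal protein genes of mouse alveolar macrophages were examined in libraries with and without a myeloid deletion of Rack1. Members were all genes of the deposited table whose name is Mrpl or Mrps followed by a number, with names ending in -ps (pseudogenes) left out. This gave 78 of the 26428 genes in the table, of which 49 are named Mrpl and 29 Mrps. The 3 control libraries (WT1 to WT3 in the labels, here control 1 to 3) carry the genotype label Rack1F/-. The title WT and this genotype label differ, so the controls are not taken here as wild type. The 3 knockout libraries (KO1 to KO3, here knockout 1 to 3) carry the label Rack1{delta}Mye. All 6 are RNA from cells labelled as alveolar macrophages of the lung, the resident phagocytes of the air spaces, and no treatment is given for either group. The promoter that drives the deletion, the deleted part of Rack1 and the strain, age and sex of the mice are not given in the sources used here. Whether each library is from its own animal is not stated. A p-value here sets a group difference against the spread between these libraries only, which may be technical.

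Mitochondria carry ribosomes of their own, which translate the few proteins encoded by mitochondrial DNA, all of them core subunits of the respiratory chain and of ATP synthase. The rRNA of these ribosomes is made in the mitochondrion, but every protein of them is encoded in the nucleus, made on cytosolic ribosomes and imported. Mrpl genes encode proteins of the large subunit, which joins amino acids, and Mrps genes proteins of the small subunit, which reads the mRNA. Some of these proteins descend from the bacterial ribosome and others were added in the mitochondrial lineage. Rack1 encodes a scaffold protein of the small subunit of the cytosolic ribosome, and it is not a part of the mitochondrial one. A few names depart from position: Mrps18a and Mrps30 encode proteins that sit in the large subunit, and the product of Mrps36 belongs to the oxoglutarate dehydrogenase complex of the citric acid cycle.

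The targeted gene was lower in every library labelled knockout. Rack1 stood at 77.3, 83.5 and 81.1 CPM (counts relative to library size, scaled by TMM, a correction for libraries dominated by a few transcripts) in control 1, 2 and 3. It stood at 38.6, 38.2 and 34.1 CPM in knockout 1, 2 and 3, a log2 fold change of -1.12 ± 0.11 (SE, edgeR adjusted p = 0.000207). The groups did not overlap. Estimated counts summed to between 51894849 and 66163430 units per library, with a read pair worth about 4 units. The members took 0.464%, 0.546% and 0.566% of the units in the control libraries and 0.413%, 0.348% and 0.504% in the knockout libraries, and the least covered member had 184 to 572 units in a library. Of the 10 alveolar macrophage markers listed, 2 were higher in knockout (Car4, Marco) and 2 lower (Siglecf, Krt79), with a summed level of 76364 to 151454 CPM in control and 88321 to 157874 CPM in knockout. None of the 10 was at 0 in a library group.

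Most mitochondrial ribosomal protein genes differed little between knockout and control libraries. No member was higher by the test and 4 were lower: Mrpl33 and Mrpl57 of the large subunit and Mrps9 and Mrps33 of the small subunit. All 78 members had enough counts to be tested among 14797 genes. The test was edgeR's quasi-likelihood test with Benjamini-Hochberg adjustment over all genes tested, at an adjusted p under 0.05. By the same rule 5.93% of all genes tested were higher and 6.01% lower in knockout, so that the members' 4 lower genes, 5.13% of them, were close to the background share and their 0 higher genes were below it. At an unadjusted p under 0.05, 7 members were higher and 12 lower (8.97% and 15.4%), where 12.6% and 12.8% of all genes were. DESeq2 called 4 members higher and the same 4 lower, beside 7.66% and 8.03% of the genes it tested.

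The changes of the family lay in a narrow range around 0. The median log2 fold change, knockout over control, was -0.02 over the 78 members and 0.01 over all genes tested. The quartiles of the members ran from -0.25 to 0.13, where those of all genes ran from -0.32 to 0.37. The extremes among members were -0.70 and 0.63. None of the 78 reached a log2 fold change of 1 in either direction, where 13.3% of all genes tested did, and 73 of the 78 lay within 0.5 of 0. Of the members 38 had positive and 40 negative values. These genes are measured with smaller errors than most, with a median standard error of 0.14 on the log2 scale against 0.25 for all genes tested. They are also more abundant, at a median of 38.7 CPM in control against 4.45 CPM. The narrow range was not particular to them. Within 0.5 of 0 lay 93.6% of the members, 96.4% of the cytosolic ribosomal protein genes and 65.3% of all genes tested. Over the related lists read below this share ran from 65.0% (genes that load mitochondrial tRNAs) to 100% (mitochondrially encoded genes).

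**Figure D1:**
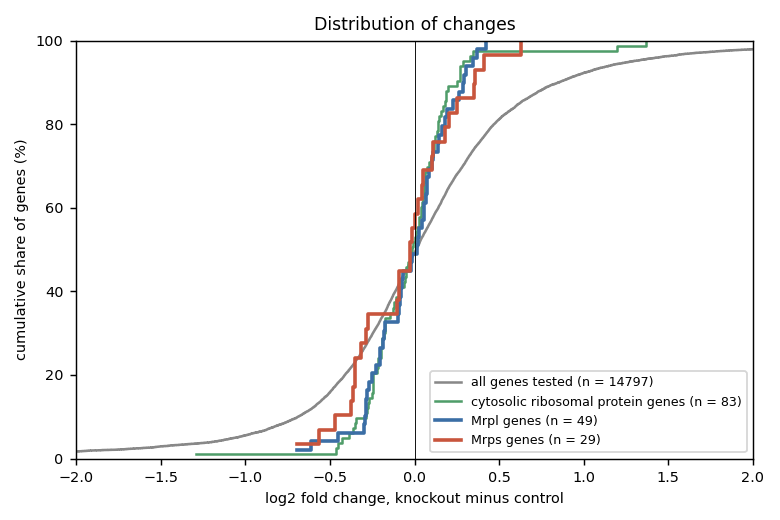
Cumulative share of genes (vertical axis, percent) at or below each log2 fold change, knockout minus control (horizontal axis), for Mrpl genes, Mrps genes, cytosolic ribosomal protein genes and all genes tested. The member curves rise within -0.70 to 0.63 and cross the middle near 0, beside a wider curve for all 14797 genes. The cytosolic ribosomal protein genes have quartiles of -0.20 and 0.12.

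Changes relative to other genes depend on the scaling. TMM raised all log2 fold changes by 0.32 over scaling to library totals, which gave a median of -0.33 for the members and of -0.31 for all genes. Of all calls 49.7% were higher with TMM and 23.7% with totals. The same 4 members were lower, and none higher, under both scalings. In bulk RNA a smaller number of cells of a type and less RNA per cell cannot be told apart.

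Mrpl33, a protein of bacterial descent in the large subunit, was at 114, 145 and 104 CPM in control 1, 2 and 3 and at 76.6, 78.1 and 69.4 CPM in knockout 1, 2 and 3. Every knockout library was below every control library. The mean fell from 121 ± 21.0 to 74.7 ± 4.65 CPM (SD, n = 3 each), a 1.62-fold lower level and a log2 fold change of -0.70 ± 0.14 (SE, edgeR adjusted p = 0.0107). Mrpl33 passed under every one of the 17 alternative settings and left-out libraries, with adjusted p between 6.14e-05 and 0.0446. The gene spans 31596935 to 31664384 of chromosome 5, plus strand (GRCm38), and its annotated exons share 3.56% of their bases with a neighbour, Gm43809, that was at 0 CPM in control.

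Mrps9, a small subunit protein of bacterial descent, was at 11.96, 12.8 and 13.8 CPM in the controls and at 8.19, 8.23 and 7.34 CPM in the knockouts. The groups were apart, and the spread within each was small. Its log2 fold change was -0.70 ± 0.15 (SE, edgeR adjusted p = 0.0125), a 1.62-fold lower level. The call held in 14 of the 17 alternatives and was lost on the FPKM scale without size factors (adjusted p = 0.0789 at a pseudocount of 1, limma) and on 4 libraries (0.0633). Mrps9 lies on chromosome 1 at 42851233 to 42905683, plus strand.

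Mrpl57 encodes a large subunit protein found in mitochondrial but not in bacterial ribosomes. Its level was 91.0, 95.1 and 83.2 CPM in control and 56.4, 68.1 and 51.8 CPM in knockout, again with no overlap. The log2 fold change was -0.61 ± 0.13 (SE, edgeR adjusted p = 0.0144), a 1.53-fold lower level. With 1 library left out, the adjusted p rose to 0.0653 without control 1, 0.0596 without control 2, 0.0632 without knockout 1 and 0.0545 without knockout 3. The gene lies on chromosome 14 at 57826234 to 57829296, plus strand, with its start 71 bases from that of Ska3 on the other strand, whose own log2 fold change was -0.63 (edgeR adjusted p = 0.310).

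Mrps33, a mitochondria-specific small subunit protein, was at 114, 119.98 and 98.5 CPM in control and at 89.1, 72.9 and 77.6 CPM in knockout. The groups did not overlap, but control 3 and knockout 1 were close to each other. The log2 fold change was -0.47 ± 0.13 (SE, edgeR adjusted p = 0.0397), a 1.39-fold lower level. This was the least stable of the 4 calls, kept in 11 of 17 alternatives. Without control 1 the adjusted p was 0.127, without control 2 it was 0.138, without knockout 2 it was 0.124 and without knockout 3 it was 0.107. Mrps33 lies on chromosome 6 at 39801804 to 39810988, minus strand.

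The sequences at the starts of these 4 genes are shown because they are the members that differed, together with Mrps21, the member with the highest level per length. Each run covers 95 bases before the RefSeq start and 12 bases from it (GRCm38.p6, gene strand, 5′ to 3′). Capitals mark the letters CCGGAAG, which ETS factors such as GABP can bind, or CGCANGCG, which NRF1 can bind. Both were searched on both strands, and both factors are known for their sites at genes of mitochondrial proteins.
Mrpl33, chr5:31613856-31613962, plus strand: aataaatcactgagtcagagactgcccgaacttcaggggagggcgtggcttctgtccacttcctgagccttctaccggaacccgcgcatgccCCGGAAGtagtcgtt
Mrpl57, chr14:57826144-57826250, plus strand: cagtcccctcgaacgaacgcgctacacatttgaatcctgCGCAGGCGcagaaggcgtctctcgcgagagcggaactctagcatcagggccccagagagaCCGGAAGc
Mrps9, chr1:42851138-42851244, plus strand: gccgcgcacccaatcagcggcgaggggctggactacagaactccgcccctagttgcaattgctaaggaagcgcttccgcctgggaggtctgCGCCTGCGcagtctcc
Mrps33, chr6:39810925-39811031, minus strand: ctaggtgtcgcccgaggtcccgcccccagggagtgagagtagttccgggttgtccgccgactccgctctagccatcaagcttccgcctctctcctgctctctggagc
Mrps21, chr3:95871503-95871609, minus strand: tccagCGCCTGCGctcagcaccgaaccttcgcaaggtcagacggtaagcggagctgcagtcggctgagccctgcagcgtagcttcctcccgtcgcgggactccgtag

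Counting from 1 at the first transcribed base, with -1 the base before it, the ETS letters lay at -3 to 4 in Mrpl33 and at 5 to 11 in Mrpl57. In Mrps33 they lay at 39 to 45 and in Mrps21 at 19 to 25, beyond the stretches shown. The NRF1 letters were at -56 to -49 in Mrpl57, at -4 to 4 in Mrps9 and at -90 to -83 in Mrps21. The RefSeq start of Mrpl33 lies inside the longer gene span of the deposited table.

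Windows of 250 bases before to 50 after the start were at hand for 69 of the 78 members. Mrpl4, Mrpl13, Mrpl15, Mrpl19, Mrpl38, Mrpl54, Mrps28, Mrps34 and Mrps35 had none. The ETS letters occurred in 25 member windows (36.2%), against 18.3% of 9910 windows of other protein-coding genes tested here and 8.86% of all 32851 windows. The NRF1 letters occurred in 20 (29.0%, against 17.2% and 8.21%), and the letters AANATGGC, which YY1 can bind, in 21 (30.4%, against 8.80% and 6.05%). The E-box CACGTG, the letters of MYC and TFE3 sites, was in 5 (7.25%, against 10.3% and 7.15%). None of these strings contains another, hits of different factors could overlap in position, and each was counted on its own. Of the members 47 held at least 1 of the ETS, NRF1 and YY1 letters (68.1%, against 37.3% of the other genes), at a median GC content of 58.3% against 60.3%. A match of letters describes the window and is not a measured site.

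Members with and without a motif were set side by side. The median log2 fold change was -0.03 in members with the ETS letters and 0.05 in those without. It was 0.00 with and -0.01 without the NRF1 letters, and -0.09 with and 0.02 without the YY1 letters. With the E-box, in 5 members, it was -0.10, and without it 0.02. Among the 4 lower members, 3 held the ETS letters (Mrpl33, Mrpl57, Mrps33), 2 the NRF1 letters (Mrpl57, Mrps9) and none the YY1 letters. No test was made over these groups of members.

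**Figure D2:**
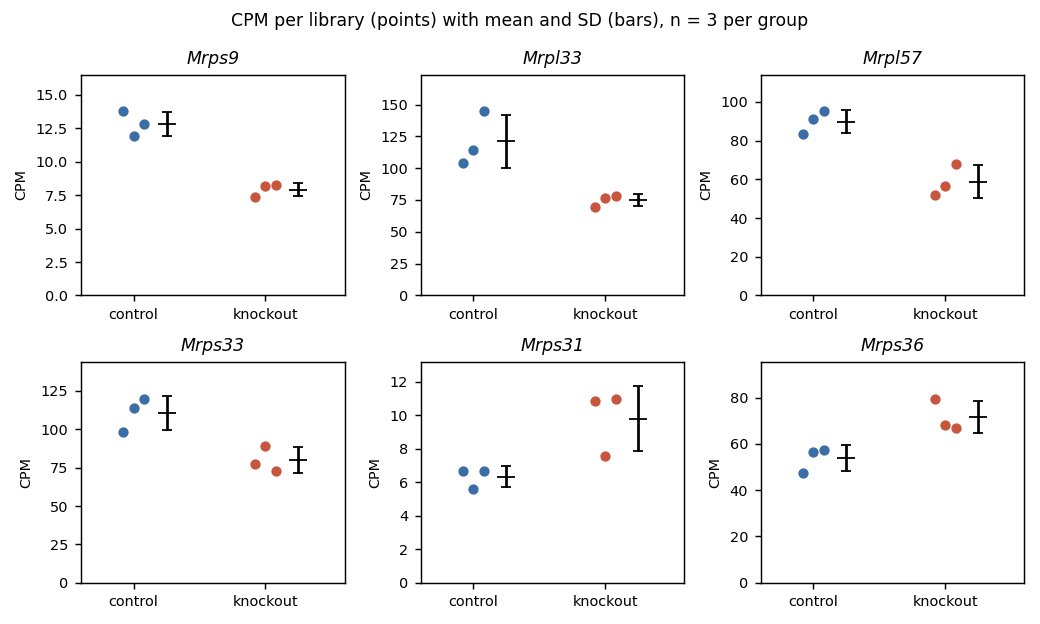
TMM-scaled CPM (vertical axis, from 0) in each control and knockout library for the 4 members lower by the test and for Mrps31 and Mrps36, which did not pass it. Points are libraries and bars the mean with SD, n = 3 per group. In all 6 panels the groups do not overlap.

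The members with the most positive values did not pass the test. Mrps31, a mitochondria-specific small subunit protein, was at 5.61, 6.66 and 6.69 CPM in control and at 7.58, 10.98 and 10.8 CPM in knockout. Its groups were apart, at a log2 fold change of 0.63 ± 0.19 (SE, edgeR adjusted p = 0.0554). Mrpl35, a large subunit protein of bacterial descent, was at 58.2, 62.2 and 62.0 CPM and at 97.6, 68.9 and 77.6 CPM, with knockout 1 far above the other knockouts. Its log2 fold change was 0.42 ± 0.14 (SE, edgeR adjusted p = 0.0845). Mrps36, of the oxoglutarate dehydrogenase complex, was at 56.5, 57.5 and 47.5 CPM in control and 68.1, 66.9 and 79.5 CPM in knockout, with no overlap, at 0.41 ± 0.13 (SE, edgeR adjusted p = 0.0650).

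The number of higher members depended on the tool. DESeq2 called Mrps31, Mrps36, Mrpl35 and Mrpl41 higher. edgeR restricted to genes with a mean of at least 100 counts added Mrps6 to these for 5 higher members, and kept the same 4 lower ones. In that restricted set 9.53% of all genes were higher and 8.62% lower. Under the test as first given, the genes just outside the threshold were Mrps31, Mrps36, Mrps6 (log2 fold change 0.36, edgeR adjusted p = 0.0686), Mrpl41 (0.37, 0.0774) and, on the lower side, Mrps35 (-0.56, 0.0785). Mrps33, at 0.0397, was the nearest inside it. Mrpl41, Mrps6 and Mrps35 were named after their values were seen.

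**Figure D3:**
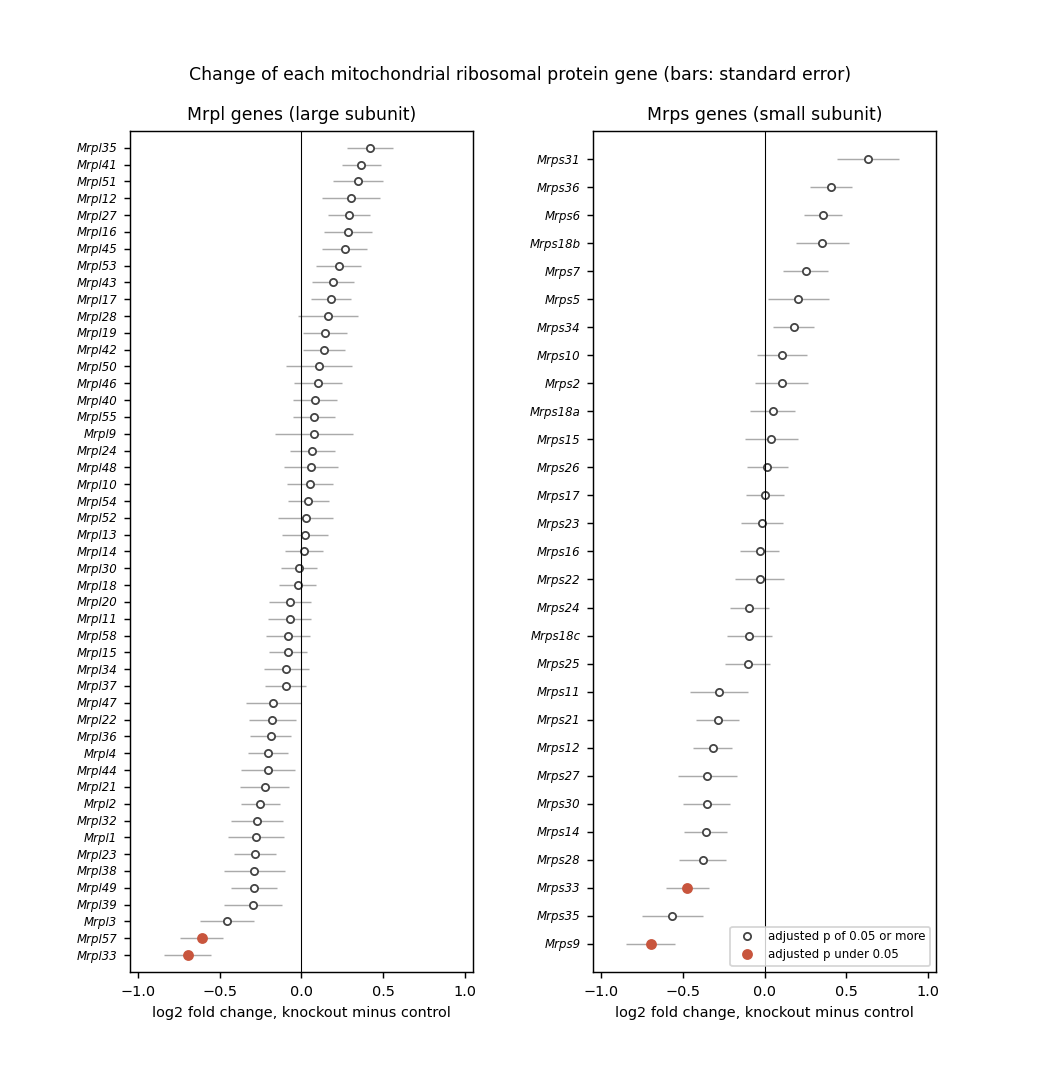
Log2 fold change, knockout minus control (horizontal axis), of each of the 78 members with its standard error (bars), for 49 Mrpl and 29 Mrps genes in order of their value. Filled points mark the 4 members with an adjusted p under 0.05, all on the lower side, and open points the other members.

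Groups that did not overlap in CPM were seen in 25 members. In 9 every knockout library was above every control library, and in 16 every knockout library was below. Over all genes tested the same held for 15.3% and 15.9%, so that the higher members, 11.5%, were under the background share and the lower ones, 20.5%, above it. Beside those already named, the lower side held Mrps12, whose bacterial counterpart lines the decoding centre, with 103, 109.8 and 103 CPM in control and 91.1, 74.7 and 87.2 CPM in knockout (log2 fold change -0.32, edgeR adjusted p = 0.124). It also held Mrps21, at 233, 238 and 194 CPM and at 192, 181 and 172 CPM (-0.29, edgeR adjusted p = 0.195). In Mrps21 the lowest control and the highest knockout library were nearly level.

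By subunit both medians lay near 0. Among the 49 Mrpl genes the median log2 fold change was 0.02, with 0 higher and 2 lower by edgeR, 4 and 4 at an unadjusted p under 0.05 and 2 and 2 by DESeq2. Among the 29 Mrps genes it was -0.03, with 0 higher and 2 lower by edgeR, 3 and 8 at an unadjusted p under 0.05 and 2 and 2 by DESeq2. The 2 lower genes are 4.08% of the Mrpl and 6.90% of the Mrps genes, beside 6.01% of all genes. At an unadjusted p the shares were 8.16% higher and 8.16% lower for Mrpl and 10.3% higher and 27.6% lower for Mrps, beside 12.6% and 12.8% of all genes. DESeq2 called 7.66% of the genes it tested higher and 8.03% lower. Moving Mrps18a and Mrps30 to the large subunit, where their proteins sit, and leaving out Mrps36 gave 0.02 for 51 genes and -0.03 for 26. The 46 members of bacterial descent had a median of -0.05 and the 31 mitochondria-specific ones a median of 0.03, with 2 lower in each (4.35% and 6.45%).

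The balance of large and small subunit transcripts was measured in several ways, which differ in direction. The ratio of summed Mrpl to summed Mrps CPM, which does not depend on library scaling, was 1.54, 1.596 and 1.57 in control 1, 2 and 3. It was 1.71, 1.66 and 1.68 in knockout 1, 2 and 3, so that the groups did not overlap. The sum leans on a few abundant genes. Without Mrps21 the ratio was 1.76, 1.83 and 1.77 against 1.91, 1.86 and 1.86, still apart. Without the 4 highest genes of each subunit it was 1.98, 2.07 and 1.97 against 2.08, 2.03 and 2.02, and the groups overlapped. With Mrps18a and Mrps30 counted in the large subunit and Mrps36 left out, it was 1.85, 1.88 and 1.89 against 2.07, 1.99 and 2.05, apart. The ratio of summed FPKM over all members was 1.29, 1.31 and 1.35 against 1.49, 1.45 and 1.48, also apart. In measures that weigh all genes equally, the knockout libraries did not all lie above the controls. The mean log2 CPM of Mrpl genes minus that of Mrps genes was 0.01, 0.07 and -0.0011 in control and 0.09, 0.03 and 0.05 in knockout, with overlap. The difference of the medians was 0.14, 0.23 and -0.08 in control and -0.09, -0.28 and -0.18 in knockout, apart but toward the small subunit. These measures are descriptions with no p, and the lists behind them were trimmed after the values were seen.

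**Figure D4:**
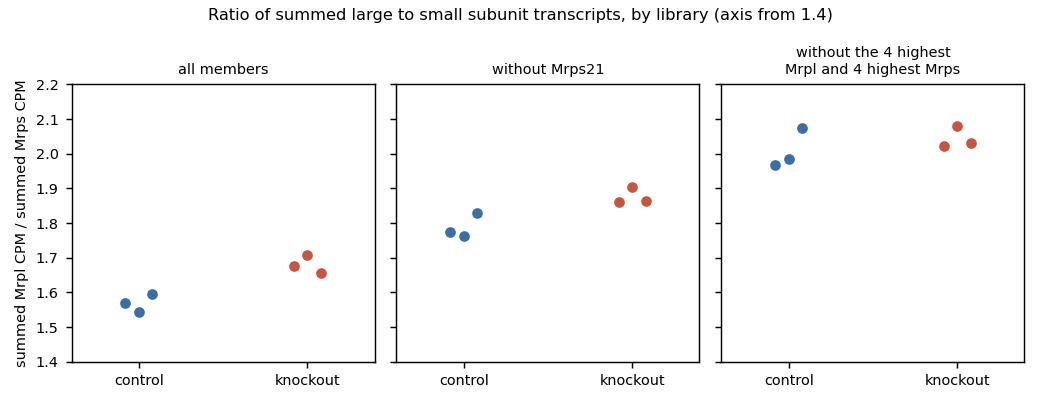
Summed CPM of Mrpl genes over summed CPM of Mrps genes (vertical axis, a ratio, starting at 1.4) in each control and knockout library, for all members, without Mrps21, and without the 4 highest genes of each subunit. Control and knockout points are apart in the first 2 panels (1.54 to 1.596 against 1.66 to 1.71 with all members) and overlap in the last.

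Levels per length differed widely between members. FPKM, a length-scaled value as deposited, compares genes, but it is not corrected for the composition of the libraries, and knockout values run lower for most members on this scale. The median member was at 17.9, 21.2 and 24.1 FPKM in the controls and at 15.5, 13.6 and 20.2 FPKM in the knockouts, which overlap. Mrps21, a small subunit protein of bacterial descent, was the highest, at 287, 339 and 324 FPKM in control and 199.9, 186 and 239 FPKM in knockout. It passed the test only on this unscaled FPKM scale (limma, adjusted p = 0.0468 at a pseudocount of 1). The next were Mrpl12 at a mean of 134 FPKM over the 6 libraries, Mrpl54 at 119.8, Mrps18c at 111, Mrps15 at 109, Mrpl34 at 108 and Mrpl28 at 98.8.

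At the top of this order Mrps21 was above every other member in all 6 libraries. Mrpl12 ran from 97.9 to 156 FPKM and Mrpl54 from 92.9 to 139.98 FPKM, and the ranges of Mrps18c, Mrps15, Mrpl34 and Mrpl28 overlapped these, so that the members after Mrps21 were not separated beyond their spread. At the lower end stood Mrps35 with a mean of 0.971 FPKM, Mrpl3 with 1.66 and Mrps9 with 1.77. FPKM divides by the summed length of all annotated exons of a gene, which held within 2% for 98.9% of genes with over 500 units, so genes with long, rarely used exons read low. Mrps35, Mrpl3 and Mrps9 have 8631, 6661 and 5763 such bases, and per length of the longest transcript Mrps35 was still 29 of 29 Mrps genes, Mrpl3 49 of 49 Mrpl genes and Mrps9 25 of 29 Mrps genes.

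**Figure D5:**
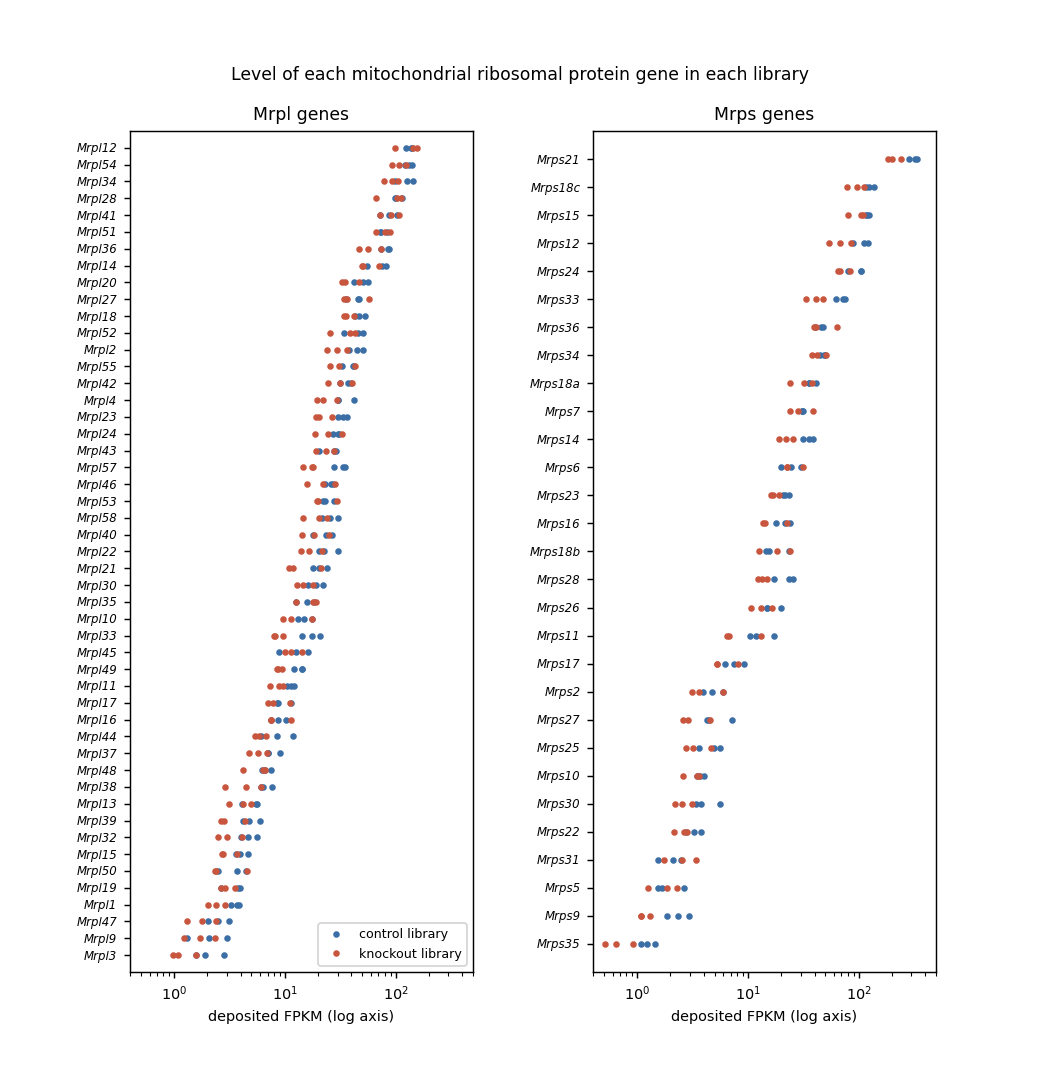
Deposited FPKM (horizontal log axis) of each member in each of the 6 libraries, Mrpl genes on the left and Mrps genes on the right, ordered by mean level. Levels span from 0.511 FPKM for Mrps35 in knockout 2 to 339 FPKM for Mrps21 in control 2, and knockout points lie to the left of control points for most genes on this uncorrected scale.

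None of the other abundant members passed the test. Mrpl12, the protein of the flexible stalk that receives elongation factors, was at 209.6, 201 and 176 CPM in control and 311, 197 and 215 CPM in knockout. Knockout 1 stood far above the other 5 libraries, and the log2 fold change was 0.30 (edgeR adjusted p = 0.321). Mrpl54, a mitochondria-specific large subunit protein, was at 103 ± 8.75 and 106 ± 9.90 CPM in control and knockout (SD, n = 3 each), and Mrpl34, of bacterial descent, at 70.5 ± 10.2 and 66.1 ± 5.91 CPM. Mrpl28, also of bacterial descent, was at 136 ± 15.4 and 153 ± 41.2 CPM, again with its highest value, 199 CPM, in knockout 1. Mrps15, a small subunit protein of bacterial descent, was at 193 ± 24.6 and 199 ± 37.8 CPM. Their edgeR adjusted p ran from 0.321 (Mrpl12) to 0.914 (Mrps15).

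The 3 Mrps18 genes are paralogues related to a protein of the bacterial small subunit. Mrps18c takes the place of the bacterial protein, while Mrps18b in the small and Mrps18a in the large subunit take places of their own and are counted with the mitochondria-specific proteins above. Mrps18a was at 131 ± 10.9 CPM in control and 136 ± 19.7 CPM in knockout, with a log2 fold change of 0.05 (edgeR adjusted p = 0.872). Mrps18b was at 34.8 ± 4.63 and 44.5 ± 8.32 CPM (0.35, adjusted p = 0.204), and Mrps18c at 129 ± 17.2 and 121 ± 12.3 CPM (-0.09, adjusted p = 0.748), with overlapping groups in all 3. The exons of Mrps18b share 30.5% of their bases with the antisense gene Gm16279, and those of Mrps18c share 23.2% with Gm43511. Gm43511 lies on the same strand as Mrps18c, so strand cannot separate their shared reads. For genes on opposite strands, such as Gm16279, the library kit is not stated to keep strand. Both neighbours were assigned low levels. Gm16279 was at 1.81 CPM in control and 2.13 CPM in knockout, and Gm43511 at 0.258 and 0.295 CPM.

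Such overlaps touch other members too. In 29 of the 78, exon bases are shared with another gene, and in 14 with at least 10% of the member's exon bases. The shares reached 88.0% in Mrpl53 (with Gm42688), 69.8% in Mrps25 (with Nr2c2) and 63.4% in Mrps34 (with Mapk8ip3). These neighbours were assigned less than the members. Gm42688 was at 0.592 CPM in control and Mrpl53 at 18.1 CPM. Nr2c2 was at 2.05 CPM and Mrps25 at 29.2 CPM, and Mapk8ip3 at 4.49 CPM and Mrps34 at 94.1 CPM. It is not so for all overlaps: Ndufb5, at 112 CPM in control, shares 13.9% of the exon bases of Mrpl47, at 10.6 CPM. Among the 4 lower members only Mrpl33 shares exon bases. In 26 members a tested protein-coding gene starts within 1000 bases on the other strand. Of those neighbours, Psma2, a proteasome subunit gene that starts 75 bases from Mrpl32, was lower in knockout (log2 fold change -0.43, edgeR adjusted p = 0.0281), with Mrpl32 itself at -0.27.

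Some positions in the ribosome were followed by their known proteins, a choice made for role. Beside Mrpl12, the stalk base proteins Mrpl10 (24.4 ± 0.294 CPM in control and 25.3 ± 3.76 CPM in knockout) and Mrpl11 (34.7 ± 2.79 and 33.0 ± 3.64 CPM) had log2 fold changes of 0.05 and -0.07. Mrpl45, which faces the inner membrane near the tunnel exit, was at 30.1 ± 4.29 and 36.2 ± 2.02 CPM. In the central protuberance Mrpl38, Mrpl40, Mrpl46 and Mrpl48 had log2 fold changes of -0.29, 0.08, 0.10 and 0.06. Mrpl58, a peptidyl-tRNA hydrolase built into the large subunit that can free stalled chains, was at 80.8 ± 0.978 and 76.3 ± 11.9 CPM. None of these passed the edgeR test.

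The members were also split by level. In the third of members with the lowest FPKM the median log2 fold change was -0.09, in the middle one -0.02 and in the highest 0.03. The members lie on 17 chromosomes, with 11 genes on chromosome 11 and 8 on chromosome 17, and the 4 lower ones are on 4 different chromosomes. Replicate spread was small: the median coefficient of variation of CPM was 9.14% in control and 10.4% in knockout. It was 12.6% and 13.0% for the 7651 genes tested between the lowest and highest member FPKM. Those genes were not matched to the members in level within that range, so the gap may reflect level. The widest members were Mrpl9 in control at 26.2% and Mrpl28 in knockout at 27.0%. Knockout 2 had the lowest knockout value in 45 of 78 members, and control 3 the lowest control value in 40. The summed level of all members was 4829, 4861 and 4368 CPM in control and 5046, 4357 and 4627 CPM in knockout, so the groups overlapped.

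Of 5 mitochondrial ribosomal proteins with other names, none passed the edgeR test in either direction, and their median log2 fold change was -0.09. At an unadjusted p under 0.05 there was 1 higher and 0 lower, and DESeq2 called 0. Dap3, a GTP-binding protein of the small subunit, was at 40.1 ± 8.62 CPM in control and 37.7 ± 3.45 CPM in knockout. Ptcd3, an RNA-binding protein of the small subunit, was at 5.75 ± 0.673 and 5.31 ± 0.688 CPM.

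Among 28 genes for assembly of this ribosome and modification of its rRNA, 2 were higher and 1 lower by edgeR and by DESeq2, at a list median of -0.14. At an unadjusted p under 0.05 there were 4 higher and 5 lower (14.3% and 17.9%, beside 12.6% and 12.8% of all genes). The edgeR calls are 7.14% and 3.57% of the list, beside 5.93% and 6.01% of all genes tested. Eral1, a GTPase that binds the rRNA of the small subunit during assembly, was at 8.02, 10.9 and 9.68 CPM in control and 5.45, 5.41 and 6.26 CPM in knockout. It was lower with no overlap (log2 fold change -0.74, edgeR adjusted p = 0.0221). Mterf4, which works in large subunit assembly with the methyltransferase Nsun4, rose from 3.36 ± 0.637 to 7.39 ± 1.55 CPM (log2 fold change 1.13, adjusted p = 0.0105). Rpusd3, a mitochondrial pseudouridine synthase, rose from 13.2 ± 3.32 to 28.7 ± 5.99 CPM (log2 fold change 1.12, adjusted p = 0.00700). Both are larger changes than in any member. Noa1, another GTPase of small subunit assembly, was at -0.51 (adjusted p = 0.140).

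The 16 translation factors of mitochondria gave 0 calls by edgeR, where 5.93% of all genes tested were higher and 6.01% lower. Their median log2 fold change was -0.02. Neither DESeq2 nor an unadjusted p under 0.05 gave a call there (0 in each direction). Mtif2 and Mtif3, which start translation there, were at 0.18 and -0.03 on the log2 scale. Of 20 genes that load mitochondrial tRNAs, 0 were higher and 1 lower by edgeR, 1 and 4 at an unadjusted p under 0.05 and 1 and 1 by DESeq2. Gatc, a subunit of the amidotransferase that makes glutaminyl-tRNA, was lower, from 13.9 ± 0.118 to 8.63 ± 1.06 CPM (-0.69, edgeR adjusted p = 0.0147), and the list median was -0.19. Nars2, the synthetase for asparagine, was at 2.21 ± 0.218 CPM in control and 3.96 ± 0.637 CPM in knockout (log2 fold change 0.84, edgeR adjusted p = 0.0515), just outside the threshold, and was named after its values were seen. The synthetases Aars2 and Cars2 were at -0.07 and -0.37 and did not pass.

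Of 17 genes for transcription of mitochondrial DNA and processing of its RNA, 1 was higher and 1 lower by edgeR and by DESeq2, at a median of -0.24. At an unadjusted p under 0.05 there were 1 higher and 5 lower (5.88% and 29.4%, beside 12.6% and 12.8% of all genes). The edgeR calls are 5.88% of the list in each direction, close to the 5.93% and 6.01% of all genes tested. Polg, the catalytic subunit of the mitochondrial DNA polymerase, rose from 4.74 ± 0.405 to 8.54 ± 1.92 CPM (0.85, edgeR adjusted p = 0.0237). Hsd17b10, a dehydrogenase that is also a subunit of mitochondrial RNase P, fell from 38.9 ± 2.26 to 23.8 ± 3.30 CPM (-0.71, adjusted p = 0.00864). The RNA polymerase gene Polrmt was at -0.02 and Tfam, which packages mitochondrial DNA, at -0.47 (adjusted p = 0.0992).

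Among 11 tested nuclear factors of mitochondrial biogenesis, 0 were higher and 1 lower, also by DESeq2 and at an unadjusted p under 0.05. The 1 lower is 9.09% of the list, beside 6.01% of all genes by edgeR and 12.8% at the unadjusted p. Myc, a growth-related transcription factor, was at 54.1, 55.1 and 47.1 CPM in control and 36.5, 35.6 and 31.6 CPM in knockout, a log2 fold change of -0.59 (edgeR adjusted p = 0.0118) with no overlap. Myc is also a factor whose E-box letters were searched in the promoters. Of the other factors with letters searched there, Nrf1 and Gabpa were at -0.33 (edgeR adjusted p = 0.382) and 0.34 (adjusted p = 0.675). Yy1 and Tfe3 were at 0.13 (adjusted p = 0.739) and 0.23 (adjusted p = 0.374). Groups overlapped in these 4.

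The cytosolic ribosome and the transcripts of mitochondrial DNA were read for comparison. Of 83 cytosolic ribosomal protein genes 0 were higher and 2 lower, at a median of -0.01. At an unadjusted p under 0.05 there were 1 higher and 8 lower, and DESeq2 called 0 higher and 4 lower. The lower ones were Rps3a1 (-0.45, edgeR adjusted p = 0.0354) and Rpl7a (-1.29, adjusted p = 0.0489), named after their values were seen and both with many near-identical pseudogene copies that may share reads. Of 31 tested mitochondrially encoded genes none passed in either direction by edgeR, by DESeq2 or at an unadjusted p under 0.05, at a median of -0.03. These include tRNA genes at very low levels, such as mt-Tv at 0.304 CPM in control and 0.224 CPM in knockout. The median standard error of the list was 0.28, against 0.14 for the members. Its mRNAs ran from -0.37 (mt-Cytb) to 0.42 (mt-Co3).

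Markers of other cells were summed in each library. Of the monocyte or interstitial macrophage markers, 6 summed to 59.7 to 106 CPM in control and 142 to 291 CPM in knockout, with C1qa, C1qb and C1qc higher. The 6 neutrophil markers summed to 12.4 to 26.2 and 70.9 to 83.6 CPM, with 0 higher and Ly6g lower of 4 tested. The 8 gut epithelial markers summed to 11.5 to 15.3 CPM in control and 0.828 to 1.86 CPM in knockout, with 5 of 6 tested lower. Fibroblast and smooth muscle markers summed to 3.65 to 7.39 and 0.931 to 2.41 CPM, with 2 of 6 lower. Lung epithelial markers summed to 50.2 to 88.4 and 49.2 to 53.0 CPM, with Sftpa1 and Sftpc higher and Epcam lower. Lymphoid markers summed to 10.9 to 19.3 and 12.6 to 21.2 CPM, dendritic cell markers to 3.42 to 5.24 and 1.23 to 5.90 CPM and endothelial markers to 7.04 to 8.83 and 5.62 to 7.65 CPM. Erythroid genes summed to 149 to 1174 and 1097 to 1802 CPM. Tested were 5 lymphoid, 3 dendritic, 2 endothelial and 5 erythroid markers, and none of these passed. Their part in the values of the members was not tested.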

How the data were processed

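Per the file headers, the table deposited by the authors holds 2 measures of every gene in every library. The first is an estimated count (expected count) of the authors, not normalized, and the second is the authors' FPKM. The submitters' processing notes name HISAT2, StringTie, cutadapt, FastQC, edgeR and DESeq2 with the GRCm38 build, with no versions and no role for each. Total RNA was extracted with TRIzol, and the kit was a NEBNext Ultra RNA kit, per the labels' protocols. Deposited counts were whole numbers and were not tallies of reads, since a read pair is worth about 4 units. That departs from the raw counts the test assumes.

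All values were computed from this table. edgeR 4.0.16 (R 4.3.3) was run on all genes with its default expression filter, TMM scaling and a quasi-likelihood test with no covariate, and p-values were adjusted over 14797 genes by the Benjamini-Hochberg method at 0.05. For a standard error, each log2 fold change was divided by the root of its F value. CPM used TMM-scaled library sizes. DESeq2 1.42.0 and limma 3.58.1 (log2 of FPKM plus 1 or 0.1) were alternatives, with other scalings and filters, a replicate block, each library left out and, chosen after seeing the data, counts divided by 4 and a fit on 4 libraries without control 3 and knockout 2, which had the most and the fewest units. The code of the test was run on simulated counts. These did not model the deposited units or changes as small as those of the members called here. Summaries and plots were made with matplotlib 3.10.9, numpy 2.4.6, pandas 2.3.3 and Python 3.11.15.

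Members, lists and tests were chosen with earlier results of these data known. Genes named are Rack1, members past the threshold, the 4 highest Mrpl and Mrps genes by FPKM, the 3 largest changes each way, the Mrps18 family and, from each pathway list, the first 2 symbols and the genes past the threshold. Others were chosen for their role or after their values were seen. Which subunit a protein sits in and its bacterial descent come from general knowledge of ribosome structures. Promoter windows are RefSeq's (GRCm38.p6), matched by symbol. For 3 members with several windows the first listed was used. Exon lengths and overlaps are from GENCODE M21. A marker of the monocyte or interstitial macrophage list is not reported here.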

Additional observations from a re-analysis of the deposited data

How the results depend on the processing

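The least covered member had 184 units in a library, and each group holds 3 libraries. The number of members called higher, 0 by edgeR, was 4 with DESeq2, 5 with a mean of at least 100 counts, 3 with counts divided by 4, 1 on 4 libraries and 0 to 1 when a library was left out. For Mrpl genes it was 2 with DESeq2 and 2 with at least 100 counts. For Mrps genes it was 2 with DESeq2, 3 with at least 100 counts, 3 with counts divided by 4, 1 on 4 libraries and 0 to 1 with a library left out. The number lower, 4, was 2 on 4 libraries and 2 to 4 with a library left out, the 2 cases being without control 1, control 2 or knockout 3. It was 1 to 2 for Mrpl genes and 1 to 2 for Mrps genes with a library left out, and 0 for Mrps genes on 4 libraries. With the replicate number as a replicate block 3 members were lower, 1 of them an Mrps gene, and Mrps33 had an adjusted p of 0.0527. DESeq2 called 7.66% of all genes higher and 8.03% lower, and the filter of at least 100 counts 9.53% and 8.62%. For the other alternatives the share of all genes called was not worked out, so their member counts have no background beside them. Deviations from the group mean in same-numbered libraries correlated at 0.06, -0.02 and 0.04, and those in differently numbered ones at -0.10 to 0.05. With 3 libraries per group such values cannot show whether the numbers pair the libraries. The median log2 fold change of all members was -0.33 with library totals, -0.31 with limma at a pseudocount of 1 and -0.34 at 0.1. It was -0.31, -0.30 and -0.31 for Mrpl genes and -0.34, -0.32 and -0.35 for Mrps genes, and the medians of all genes were -0.31, -0.11 and -0.26. With a library left out the Mrpl median ran from -0.075 to 0.039. No member name occurs on more than 1 line of the table, so leaving out repeated names gave no value.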

Other observations

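Mrpl55 shares its start region, at 101 bases, with the noncoding transcript 2610507I01Rik on the other strand. That transcript was at 3.58 CPM in control and 0.0322 CPM in knockout (log2 fold change -6.90, edgeR adjusted p = 0.000405), while Mrpl55 itself was at 0.08. The 5 named pseudogene entries of the family were left out of all counts above. Mrpl23-ps1 was the highest of them, at 14.3 to 36.3 FPKM over the 6 libraries, and the others reached at most 10.7 FPKM. None of the 5 passed the edgeR test. Actl6a, which shares 10.2% of the exon bases of Mrpl47, was lower in knockout (log2 fold change -0.56, edgeR adjusted p = 0.0208), with Mrpl47 at -0.17. These genes were chosen after their values were seen.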
